A study of Mus musculus with 2 samples.

Results

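The core circadian loop of the liver was examined in 10 genes taken by symbol from the deposited expression table of 24054 genes. They are the activators Arntl, Clock and Npas2, the repressors Per1, Per2, Per3, Cry1 and Cry2, and the nuclear receptor genes Nr1d1 and Nr1d2. All 10 were listed in the table, and their mean over the libraries was 1 TPM or more. TPM is the share of the transcript pool that a gene holds after correction for transcript length, so TPM values can be compared between genes.

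The data are 2 liver RNA-seq libraries from male mice aged 8 to 12 weeks, labelled C57BL/6 as the strain. One library was made from Pgrmc1 KO (Pgrmc1 -/Y) mice, which lack the X-linked gene Pgrmc1 in the whole body, and the other from WT mice. The KO line derives from a loxP-flanked Pgrmc1 allele made in C57BL/6N, with a neomycin cassette inside the loxP sites. The stretch between these sites was deleted with Sox2-Cre from the line B6.Cg-Tg(Sox2-cre)1Amc/J. Sox2-Cre acts in the early embryo and so in all tissues rather than in the liver alone. Each library was made from a pool to which every mouse of that genotype gave 2.5 μg of RNA, so the spread between mice was not measured. No difference below has a replicate check and no p-value was computed. The time of day at which the sequenced livers were taken is not given in the sources used here.

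The circadian clock of mammalian cells is a feedback loop of transcription. BMAL1, the product of Arntl, pairs with CLOCK or its paralog NPAS2, and the dimer binds E-box sequences and activates the Per, Cry and Nr1d genes. PER and CRY proteins then return to the nucleus and inhibit the dimer, whereas REV-ERBα (Nr1d1) and REV-ERBβ (Nr1d2), receptors that bind heme, repress Arntl and other genes through a shared response element on which ROR receptors activate. In mouse liver the transcripts of Arntl, Clock, Npas2 and Cry1 are known to peak between late night and dawn. Those of Nr1d1 and Nr1d2 peak during the day, those of Per3 and Per1 near dusk, that of Per2 in the early night, and that of Cry2 late in the day with a low amplitude.

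The letters of these elements were looked up in the RefSeq promoter windows of GRCm38.p6, which run from 250 bases before to 50 bases after each transcript start. Of the 10 genes, 9 have windows there (13 windows in all), and Per2 does not. Both strands were searched for the E-box CACGTG (in 7.15% of all 32851 windows), the related E-prime box CACGTT (4.68%), the D-box TTANGTAA (2.32%), the cyclic AMP element TGACGTCA (1.79%), and 3 spellings of the element of ROR and REV-ERB receptors, TAGGTCA (2.61%), TGGGTCA (3.98%) and AGTAGGTNA (0.591%), of which the first and the last can overlap. A match is a description of the letters and was not measured as a binding site here.

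The windows of Arntl hold 2 elements of ROR and REV-ERB receptors, which were picked to be shown after the values were seen. Whether they play a part in any difference between the libraries was not tested. On the plus strand of GRCm38.p6 the stretches lie at chr7:113207493-113207521 and chr7:113207529-113207557, and both overlap an annotated exon. The capitals mark the letters AGTAGGTNA, and in the downstream stretch they also hold TAGGTCA.
Arntl, upstream element: ttggtcggaaAGTAGGTTAgtggtgcgac
Arntl, downstream element: gaaggcagaaAGTAGGTCAgggacggagg

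Among the repressors, Per1, Per3, Cry1 and Cry2 held a match, and so did Nr1d1. The following stretches are printed along the strand of the gene, with matched letters in capitals. For Per1 it is the plus strand at chr11:69098739-69098888, with an E-box that begins 166 bases before the transcript start. For Per3 it is the minus strand at chr4:151044736-151044885, with 2 D-boxes. For Cry1 it is the minus strand at chr10:85185085-85185204, with an E-prime box read on the opposite strand followed by an E-box. The shorter stretches of Cry2 (minus strand, chr2:92434220-92434245) and Nr1d1 (minus strand, chr11:98775390-98775415) each hold an E-prime box on the opposite strand. The windows of Clock, Npas2 and Nr1d2 held 0 matches, which says only that these letters are not in these windows.
Per1: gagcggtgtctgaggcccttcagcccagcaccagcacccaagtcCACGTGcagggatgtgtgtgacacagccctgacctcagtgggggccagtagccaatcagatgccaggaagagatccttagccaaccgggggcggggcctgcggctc
Per3: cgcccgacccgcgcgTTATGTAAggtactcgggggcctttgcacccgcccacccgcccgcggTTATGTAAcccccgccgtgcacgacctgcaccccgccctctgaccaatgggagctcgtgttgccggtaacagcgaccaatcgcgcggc
Cry1: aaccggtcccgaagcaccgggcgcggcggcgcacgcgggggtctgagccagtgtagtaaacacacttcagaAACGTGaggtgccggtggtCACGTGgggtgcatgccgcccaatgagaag
Cry2: acatggtgggAACGTGagggggcgga
Nr1d1: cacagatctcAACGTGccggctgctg

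Reads were estimated here from the scaled values of the authors' EBSeq table, as described below. They summed to 22086688 on its 16318 genes in KO and 29710410 in WT. Pgrmc1 stood at 949 TPM in WT against 0.68 TPM in KO, which matches the labelled genotypes. Of all genes that averaged 1 TPM or more, 45.8% were higher in KO. Transcripts of 6 hepatocyte markers, among them Alb, summed to 76055 TPM in WT and 73049 TPM in KO (1 of 6 higher). Sums for other cells of the liver were 217 and 248 TPM for 6 Kupffer cell markers (6 of 6 higher in KO), 135 and 121 TPM for 5 endothelial markers (0 of 5 higher) and 199 and 173 TPM for 5 stellate cell markers (1 of 5 higher). They were 5.44 and 4.15 TPM for 4 cholangiocyte markers (1 higher of the 3 that averaged 1 TPM or more) and 887 and 922 TPM for 4 red cell markers (2 of 4 higher), and no marker of any list was at 0. The red cell sum hides opposite differences, with Hba-a1 at 600 TPM in WT against 683 TPM in KO and Hbb-bs at 77.14 against 41.29 TPM. Among the endothelial markers Lyve1 differed most, at 17.94 TPM in WT against 11.47 TPM in KO. The part of these cell types in the results below was not tested, and in bulk RNA fewer cells of a type and less RNA per cell cannot be told apart.

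In the WT library the REV-ERB genes were the most abundant of the 10, with Nr1d2 at 41.20 TPM (95% counting interval 39.8 to 42.6) and Nr1d1 at 31.87 TPM (30.3 to 33.5). Clock followed at 21.69 TPM, Cry2 at 14.94, Arntl at 10.53, Per1 at 8.76, Cry1 at 6.43, Per2 at 4.04, Per3 at 3.87 and Npas2 at 0.76. Only the neighbours Per2 and Per3 had overlapping counting intervals in WT. In the KO library Nr1d2 was again highest at 31.74 TPM and Npas2 lowest at 1.52 TPM, and the order differed at 1 place, where Arntl stood above Cry2. There the intervals of Nr1d1 (22.3 to 25.5) and Clock (21.4 to 23.0) overlapped, as did those of Per1 (7.05 to 8.44) and Cry1 (6.72 to 8.45). These intervals, from estimated reads, cover counting error and nothing else.

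**Figure D1:**
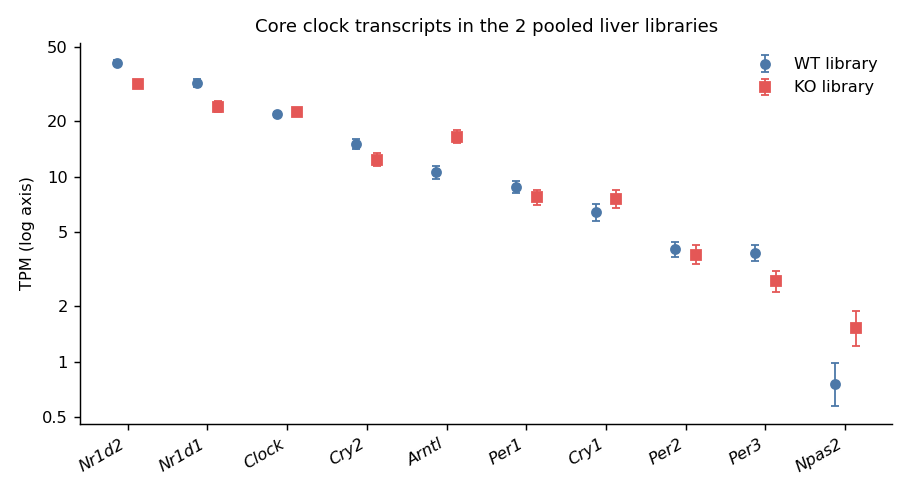
Levels of the 10 core clock transcripts in TPM (log axis) in the WT library (circles) and the KO library (squares), ordered by the WT level. Bars are 95% Poisson intervals from estimated reads, for counting error alone. Arntl and Npas2 stand higher in KO, Nr1d2, Nr1d1, Cry2 and Per3 lower, and Clock is nearly level at 21.69 and 22.19 TPM.

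A change is the log2 of KO over WT after 1 TPM was added to each level, which makes the change of a low gene look smaller than it is. Intervals of a change are 95% counting intervals of the log2 ratio of the authors' library means. A gene was counted as higher in KO at a fold of at least 1.4 and as lower at a fold of at most 0.6, the sizes that the study used. Of the 10 genes, 2 passed the fold of 1.4, which 1.21% of the 11623 genes that averaged 1 TPM or more did. Of these 2, Npas2 reached a mean of 1 TPM only through KO, since it was at 0.76 TPM in WT. None passed 0.6, which 0.301% of those genes did. With milder limits of 1.2 and 0.833, 2 clock genes were higher and 3 lower, against 5.39% and 5.51% of all genes. The counting interval held 0 for Clock and Per2 and excluded it for the other clock genes. The share of all genes whose interval excludes 0 is not given here. With many reads a small difference also excludes 0. For the hepatocyte marker Alb, with a log2 ratio of -0.059, the interval was -0.063 to -0.056.

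The genes past 1.4 were both activators. Arntl (Entrez gene 11865) lies on chromosome 7 from 113178471 to 113314126 of GRCm38 and was at 10.53 TPM in WT against 16.42 TPM in KO. That is a difference of 55.9% and a log2 change of 0.60, with an interval of 0.49 to 0.82 from 540 and 629 estimated reads. Of the 11623 genes, 102 (0.878%) had a higher change. Arntl encodes the partner that CLOCK and NPAS2 share.

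Npas2 (Entrez gene 18143; chromosome 1, 39193702 to 39363240) was the least abundant of the 10, at 0.76 TPM in WT against 1.52 TPM in KO. Its log2 change was 0.52, and 126 genes had a higher one. At this level the added 1 TPM takes up much of the change. The log2 ratio of the authors' means was 1.04, with an interval of 0.53 to 1.55 from 56 and 85 estimated reads, the widest interval of the 10 genes. Clock (Entrez gene 12753; chromosome 5, 76209868 to 76305603), whose product NPAS2 can replace in the dimer, was at 21.69 TPM in WT against 22.19 TPM in KO. With 3930 and 2998 estimated reads its interval ran from -0.03 to 0.11, so that a difference between the libraries was not detectable beyond counting error. The activators thus differed among themselves, with 2 of 3 past the fold of 1.4 and the most abundant one nearly level. Of all genes 1.21% passed that fold, and Npas2, among the 2, averaged 1 TPM or more only through KO. Npas2 amounted to 3.50% of the level of Clock in WT and 6.85% in KO.

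Both REV-ERB genes were lower in KO, by similar amounts. Nr1d1 (Entrez gene 217166; chromosome 11, 98767932 to 98775377) was at 31.87 TPM in WT against 23.84 TPM in KO, a log2 change of -0.40 (interval -0.53 to -0.29, from 1560 and 871 estimated reads). Nr1d2 (Entrez gene 353187; chromosome 14, 18204056 to 18239106) was at 41.20 TPM in WT against 31.74 TPM in KO, a log2 change of -0.37 (interval -0.45 to -0.29, from 3480 and 2000 estimated reads). Neither reached the fold of 0.6, and 208 and 274 genes of 11623 had a lower change. Their sum was 73.07 TPM in WT and 55.58 TPM in KO, while the ratio of Nr1d2 to Nr1d1 was 1.29 and 1.33. REV-ERBα and REV-ERBβ bind the same response element and act in part redundantly on Arntl.

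The 3′ end of Nr1d1 overlaps the thyroid hormone receptor gene Thra on the opposite strand, over 1075 bases in the GENCODE annotation. Thra was at 5.80 TPM in WT against 6.74 TPM in KO, a log2 change of 0.19, which is the direction opposite to that of Nr1d1. The library kit keeps the strand, and the study's methods name a strand option of RSEM without its value.

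Of the Period genes, Per3 had the largest difference. Per3 (Entrez gene 18628; chromosome 4, 150997018 to 151044707) was at 3.87 TPM in WT against 2.72 TPM in KO, a log2 change of -0.39 (interval -0.75 to -0.27, from 424 and 221 estimated reads). Its product is the Period protein least needed for the rhythm itself. Camta1, which GENCODE places on the same strand over 41014 bases of the Per3 locus, was at 1.25 and 1.30 TPM.

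Per1 and Per2 encode the Period proteins that carry the repression. Per1 (Entrez gene 18626; chromosome 11, 69095108 to 69109965) was at 8.76 TPM in WT against 7.72 TPM in KO, with an interval from -0.34 to -0.01 that lay just below 0. Per2 (Entrez gene 18627; chromosome 1, 91415977 to 91459351) was at 4.04 TPM in WT against 3.79 TPM in KO, and its interval of -0.30 to 0.13 held 0 at 432 and 302 estimated reads. The 3 Period genes were therefore all lower in KO in value, but only Per3 passed the milder limit of 0.833. They summed to 16.67 TPM in WT and 14.23 TPM in KO.

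The cryptochrome genes, whose products are the main inhibitors of the dimer, differed in opposite directions. Cry1 (Entrez gene 12952; chromosome 10, 85131700 to 85185054) was at 6.43 TPM in WT against 7.55 TPM in KO, a log2 change of 0.20 (interval 0.02 to 0.47). Cry2 (Entrez gene 12953; chromosome 2, 92403646 to 92434085) was at 14.94 TPM in WT against 12.35 TPM in KO, a log2 change of -0.26 (interval -0.41 to -0.12). Neither passed the limits of 1.2 and 0.833. Their sum stood at 21.37 TPM in WT against 19.90 TPM in KO, whereas the ratio of Cry1 to Cry2 went from 0.430 to 0.611. Cry1 was the only repressor higher in KO, and it is also the only one of the 5 repressors that belongs to the late night to dawn group. That grouping was made with earlier results of these data known, so the match is no independent evidence. The change of Cry1 lay between the 5th and the 95th percentile (-0.29 and 0.29) of genes of 4 to 8 TPM.

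**Figure D2:**
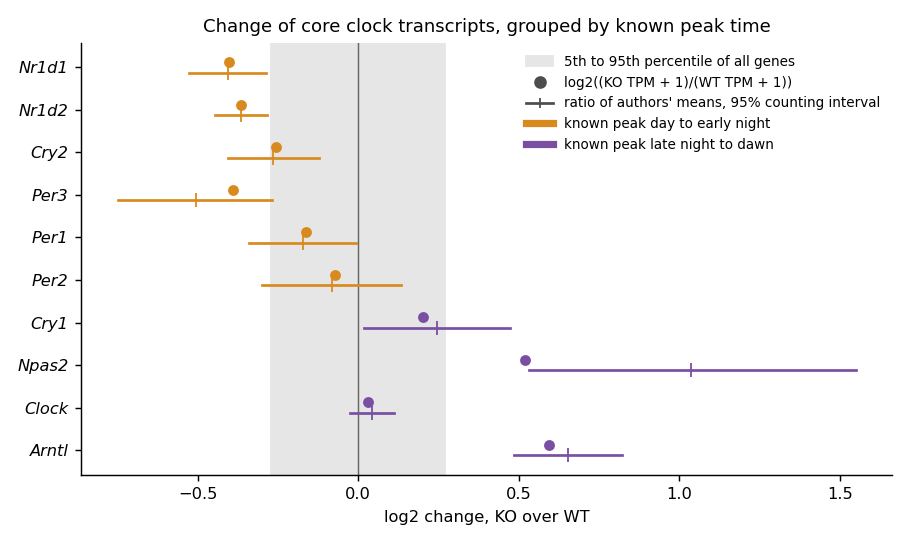
Log2 change of each core clock transcript (KO over WT), grouped by its known peak time in liver. Points are the change on the TPM scale with 1 TPM added, ticks and lines the log2 ratio of the authors' means with its 95% counting interval, and the grey band the 5th to the 95th percentile of all genes that averaged 1 TPM or more (-0.27 to 0.27). The points of the 6 genes of the day to early night group lie below 0 and those of the 4 of the late night to dawn group above it, and the intervals of Clock and Per2 hold 0.

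The genes were also set beside their known peak times. All 4 transcripts that peak from late night to dawn were above 0, with changes of 0.60 for Arntl, 0.52 for Npas2, 0.20 for Cry1 and 0.03 for Clock. All 6 that peak from day to early night were below 0, from -0.40 for Nr1d1 to -0.07 for Per2. For Clock and Per2 the counting interval held 0, so the sign of these 2 of the 10 genes was not resolved at this depth. Of all genes, 45.8% lay above 0 and 53.8% below. The median was 0.36 for the 4 genes and -0.31 for the 6, against -0.01 for all genes, and the gap between the medians was 0.67. Npas2, which is among the 4 genes, averaged 1 TPM or more only through KO. Over the 10 genes together the median was -0.12, because the groups differ in size and direction. The grouping was made with earlier results of these data known and is no independent evidence of a direction. Whether both pools were taken at the same time of day is not known. With 1 pool per genotype, a difference in time of day and a difference in genotype cannot be told apart for these rhythmic transcripts.

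Within the day to early night group the size of the difference was not even. The daytime genes Nr1d1 and Nr1d2 were 25.2% and 23.0% lower in KO, and Cry2 was 17.3% lower. Per3 and Per1, which both peak near dusk, were 29.7% and 11.9% lower, and Per2 was 6.19% lower. In the other group, Arntl and Clock, which are known to peak at nearly the same time, were 55.9% and 2.31% higher. What sets these sizes was not tested.

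Ratios between genes within a library do not depend on a scaling between libraries. Arntl stood at 0.330 of the level of Nr1d1 in WT and 0.689 in KO, so that this ratio was 2.08 times as high in KO. Against Per3 the ratio of Arntl was 2.72 in WT and 6.04 in KO, and against Clock it was 0.485 and 0.740. Of the 10 genes Arntl had the highest change, Nr1d1 the lowest, and Per3 the largest percent fall. The large differences in these ratios therefore follow from the choice of pairs and add nothing to the single values. For other pairs the ratio differed little, with Per1 to Per2 at 2.17 in WT and 2.04 in KO. The REV-ERB genes made up 50.7% of the summed TPM of the 10 genes in WT and 42.8% in KO, and the activators 22.9% and 30.9%. The sum of the 10 was 144 TPM in WT and 130 TPM in KO.

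**Figure D3:**
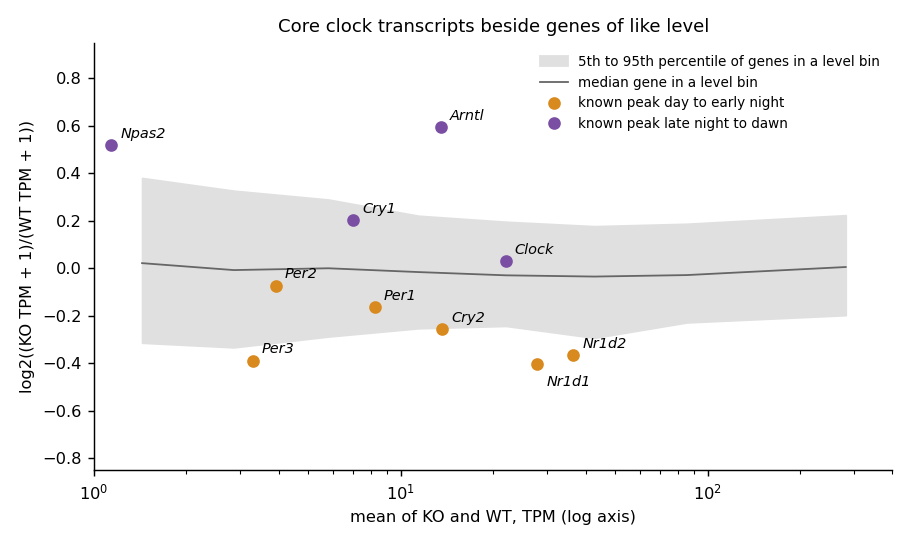
Log2 change of the 10 core clock transcripts against their mean level in TPM (log axis), over the 5th to the 95th percentile (grey band) and the median (line) of all genes in 8 bins of mean level, each drawn at its median level. Arntl, Nr1d1, Nr1d2 and Per3 lie outside the band of like genes and Npas2 above the 95th percentile (0.38) of the lowest bin, whereas Clock, Per1, Per2 and Cry1 lie within the band. Cry2 (-0.256) lies just below the 5th percentile (-0.253) of its bin.

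In the bin of 8 to 16 TPM, which holds Arntl and 2384 genes in all, the 5th and the 95th percentile of the change were -0.25 and 0.22. In the bin of 16 to 32 TPM, which holds Nr1d1 and Clock, they were -0.24 and 0.20, and in that of 32 to 64 TPM, which holds Nr1d2, -0.29 and 0.18. Per3, with a mean of 3.30 TPM, lay below a 5th percentile of -0.33 for genes between 2 and 4 TPM. These percentiles describe the spread of genes between the 2 libraries and are not a replicate error.

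Other genes of the clock were described from 3 lists. Beside their counts above and below 0 stand 45.8% and 53.8% of all genes. Of 8 output and accessory factors described here, 7 averaged 1 TPM or more, 1 of them above 0 and 6 below, with a median of -0.31, and 0 passed the fold of 1.4 or 0.6. Past the milder limit of 0.833 were 4 of the 7, namely Dbp, Tef, Bhlhe40 and Ciart, where 5.51% of all genes passed it. The highest of these factors was Nfil3, which encodes a repressor that binds D-boxes, at 25.65 TPM in WT against 30.10 TPM in KO. The lowest was Ciart, which encodes a repressor of the CLOCK and BMAL1 dimer, at 8.68 TPM in WT against 5.51 TPM in KO (log2 change -0.57). Dbp and Tef, which encode proteins that bind D-boxes, were at 25.92 and 44.79 TPM in WT and at 20.05 and 34.99 TPM in KO. They were named after their values were seen, and a link to the D-boxes of Per3 was not tested. Bhlhe41 had a mean below 1 TPM.

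Genes for factors that act on PER and CRY proteins lay mostly near 0. They encode kinases and a kinase subunit (Csnk2b), parts of ubiquitin ligases, deubiquitinating enzymes, and TIMELESS, a binding partner. Of 16 listed genes, 14 averaged 1 TPM or more, 3 above 0 and 11 below, where 45.8% and 53.8% of all genes lay. Their median was -0.06, and 0 passed the fold of 1.4 or 0.6. They ran from Usp2, a deubiquitinating enzyme and itself a rhythmic output of the clock, at 8.22 TPM in WT against 5.23 TPM in KO, to Csnk2a2, a catalytic subunit of casein kinase 2, at 5.37 and 5.88 TPM. Of the 14 genes, 1 (Usp2) was past the milder limit of 0.833, beside 5.51% of all genes.

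The coregulators through which the loop acts on chromatin lay between the 5th and the 95th percentile of all genes, with the exception of Ppargc1a. All 18 genes described here averaged 1 TPM or more, 4 above 0 and 14 below, where 45.8% and 53.8% of all genes lay. Their median was -0.05, and 0 passed the fold of 1.4 or 0.6. The list ran from Ppargc1a, a coactivator of ROR receptors, at 6.36 TPM in WT against 4.96 TPM in KO, to Hdac3, the deacetylase that REV-ERB proteins recruit, at 21.49 and 22.69 TPM. Of the 18, 1 (Ppargc1a) was past the milder limit of 0.833, about the same share as the 5.51% of all genes. Ncor1, a corepressor that they recruit, named after its values were seen, was at 36.89 TPM in WT against 36.80 TPM in KO.

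**Figure D4:**
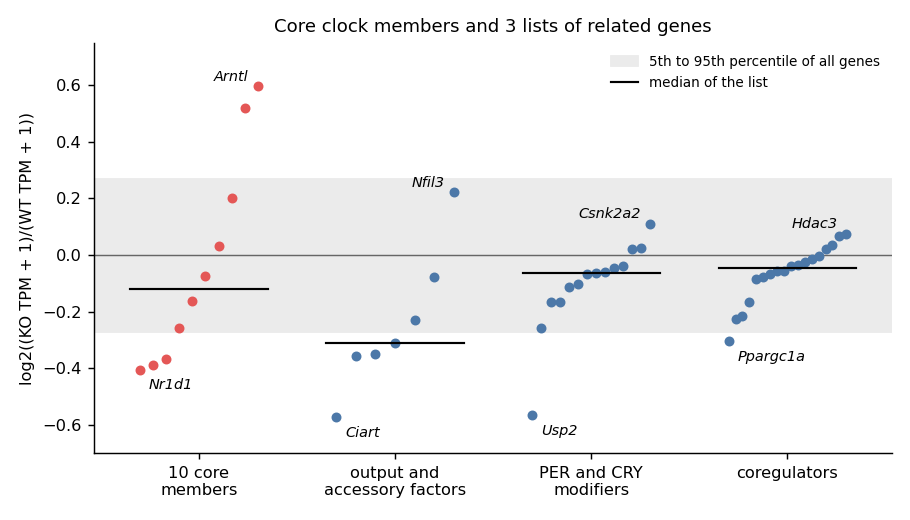
Log2 changes of the 10 core clock genes and of the members averaging 1 TPM or more of 3 lists of related genes, each sorted by its change and with its highest and lowest gene named. Black lines are list medians (-0.12, -0.31, -0.06 and -0.05) and the grey band is the 5th to the 95th percentile of all genes. The core genes reach both furthest above and well below the band, while the modifiers other than Usp2 and the coregulators other than Ppargc1a lie within it.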

How the data were processed

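Total RNA from livers of mice of 1 genotype was pooled in equal masses, and 1 stranded library per genotype was sequenced. Per the labels and the study's methods, the authors used CASAVA 1.8.2 and RSEM 1.2.09 with Bowtie on mm10 and deposited posterior mean TPM for 24054 genes. From EBSeq, the authors deposited a signal for 16318 genes, the reads RSEM assigned to a gene divided by the size factor of the library, called the authors' mean here. The header of this table does not name the genotypes, which were taken from the headings that the study's supplementary table gives the same values. The authors also deposited EBSeq's posterior probabilities, which lie between 0 and 1 like a p-value, and fold ratios. These hold the authors' own comparison and were not used. RSEM shares reads that match several genes between them, so values of genes with close copies are estimates.

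Changes were computed as log2((KO TPM + 1)/(WT TPM + 1)). The most frequent value above 0 among the authors' means (1.16 in KO, 0.860 in WT) was taken as 1 read. Within a tolerance of 0.02, 78.4% of values above 0 in KO and 75.0% in WT were whole reads, so no count test was run. For the 10 clock genes, 10 values in KO and 6 in WT were whole. Intervals at 95% (Clopper-Pearson for the ratio of the authors' means, exact Poisson for TPM) were made from estimated reads rounded to whole numbers. No p-value was computed, since each genotype has 1 library. The genes named are Pgrmc1, the 10 clock genes, the highest and the lowest member of each related list and any list member past the fold rule. Other genes named were chosen after their values were seen. Of the related lists, 2 genes are not reported here and were left out of the counts and medians of their lists. The clock genes, the related lists and the peak time groups were chosen, from general knowledge, with earlier results of these data known. Alternatives were a pseudocount of 0.1 TPM, the authors' means in place of TPM, a shift that sets the median gene to 0, scaling to the total left after the 50 most abundant genes are taken out, and other thresholds and filters. Promoter windows are those of RefSeq on GRCm38.p6, the assembly of mm10, and gene overlaps those of GENCODE. Scripts ran in Python 3.11.15 with scipy 1.17.1, pandas 2.3.3, numpy 2.4.6 and matplotlib 3.10.9.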

Additional observations from a re-analysis of the deposited data

How the results depend on the processing

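With 1 library per genotype, no replicate could be left out. No paired analysis was possible because neither genotype has a replicate to pair. For the 10 clock genes, all 40 values under a pseudocount of 0.1 TPM, the authors' means in place of TPM, a median gene set to 0 and a scaling without the 50 most abundant genes moved by no more than the gene's counting error at 95%, and 0 changed sign. The widest range was that of Npas2, from 0.52 with 1 TPM added to 1.02 with the authors' means, on 56 estimated reads in WT and 85 in KO. These scalings shifted the median of all genes by at most 0.013, so they put the directions to little test. With a threshold of 0.833 for lower genes in place of 0.6, 3 clock genes passed it in place of 0. Without a filter on low values, 0.690% of all genes passed the fold of 1.4 and 0.158% that of 0.6, as many genes near 0 TPM enter the total. The other 41 recomputed values, among them the medians of the peak time groups, the gap between them and the medians of the related lists, stayed within the counting interval or within 1.5 times the count. Depth limits Npas2 most. For the abundant clock genes the counting intervals are narrow, but the spread between mice was not measured.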
